A study of Mus musculus with 6 samples.

Results

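The antioxidant and glutathione genes of the mouse lens were examined as a set of 43 named genes, chosen by symbol: peroxiredoxins, superoxide dismutases, catalase, glutathione and thioredoxin enzymes and their regulators. All 43 have 1 row each in a table of 41449 rows. Of these, 38 had a mean of at least 1 FPKM (fragments per kilobase of transcript, scaled to the fragments mapped in a library) and were tested among 10149 genes. The other 5 (Glrx, Gstt1, Mgst3, Msrb2 and Nqo1) lay below that level and are described by their values only. RNA came from lenses of 2-month-old mice in 6 libraries of 2 lenses each. The wild-type mice (WT, 3 libraries) were of strain C57BL/6. The mice with a conditional knockout of fibronectin (FNcKO, 3 libraries) were on a mixed background of C57BL/6, 129 and FVB/N. The labels name no treatment. Genotype and strain background divide the libraries in the same way and cannot be told apart. What drives the deletion is not given in the sources used here.

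The lens is exposed to light and to peroxide for the whole of life and renews little of its protein, and it holds glutathione at a high concentration. Glutamate-cysteine ligase (Gclc and Gclm) and glutathione synthetase (Gss) make glutathione, and glutathione reductase (Gsr) restores it with NADPH, which G6pdx helps to supply. Superoxide dismutases turn superoxide into hydrogen peroxide, which catalase, glutathione peroxidases and peroxiredoxins remove. The transcription factor Nrf2 (Nfe2l2), which Keap1 holds in check, switches on many of these genes through the antioxidant response element.

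In FNcKO lenses 3 of the 38 tested genes fell and 0 rose: Sod1, the cytosolic superoxide dismutase, Prdx6, a peroxiredoxin that reduces phospholipid peroxides, and Gsto1, an omega-class glutathione transferase. Sod1 was 1.47-fold lower, Prdx6 1.53-fold lower and Gsto1 1.84-fold lower (limma adjusted p = 0.0466, 0.0422 and 0.0411). Among all genes tested, 1.03% passed as lower and 0.857% as higher at adjusted p under 0.05, against 7.89% and 0 of this set. The set was chosen with earlier results of these data known, so these shares are no test of it. The 3 calls lay close to the threshold, and 0 were left with the same FPKM total for each library or with a replicate block. The median log2 change of the 38 genes was -0.02, beside -0.04 for all genes tested, with 20 below 0 and 18 above. Hmox1, haem oxygenase 1, the most abundant of the genes, stood at 1.497 times its WT mean and did not pass the test (limma adjusted p = 0.109).

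The upstream sequences of 5 genes are shown because they belong to calls (Sod1, Gsto1) or to neighbours of 1 gene family whose levels differed in opposite directions (Gstm1, Gstm2, Gstm5). Each is the 250 bases before the transcription start from RefSeq (GRCm38.p6), 5′ to 3′ on the gene's strand. Capitals mark TGACNNNGC, the core of the antioxidant response element, searched on both strands, so that a match on the opposite strand reads GCNNNGTCA.
Sod1 (chr16:90220512-90220761, plus strand): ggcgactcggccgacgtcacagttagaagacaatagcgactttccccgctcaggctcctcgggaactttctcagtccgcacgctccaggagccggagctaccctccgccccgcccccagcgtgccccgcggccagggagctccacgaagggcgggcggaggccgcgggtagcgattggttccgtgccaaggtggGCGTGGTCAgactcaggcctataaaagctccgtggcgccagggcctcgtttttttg
Gsto1 (chr19:47854723-47854972, plus strand): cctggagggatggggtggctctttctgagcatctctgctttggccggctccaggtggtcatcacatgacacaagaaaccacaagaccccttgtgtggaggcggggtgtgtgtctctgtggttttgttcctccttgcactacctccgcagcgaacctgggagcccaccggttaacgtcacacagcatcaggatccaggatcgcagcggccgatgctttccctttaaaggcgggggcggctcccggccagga
Gstm1 (chr3:108017974-108018223, minus strand): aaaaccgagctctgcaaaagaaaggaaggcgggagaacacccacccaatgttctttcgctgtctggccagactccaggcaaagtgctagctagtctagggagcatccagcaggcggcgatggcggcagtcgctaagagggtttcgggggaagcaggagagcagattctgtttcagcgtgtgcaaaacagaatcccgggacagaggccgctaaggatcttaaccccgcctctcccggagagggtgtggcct
Gstm2 (chr3:107986421-107986670, minus strand): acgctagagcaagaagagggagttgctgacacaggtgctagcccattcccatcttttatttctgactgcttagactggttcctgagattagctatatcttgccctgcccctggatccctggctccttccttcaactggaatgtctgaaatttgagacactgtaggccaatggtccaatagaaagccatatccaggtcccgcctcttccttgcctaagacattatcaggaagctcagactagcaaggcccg
Gstm5 (chr3:107895604-107895853, plus strand): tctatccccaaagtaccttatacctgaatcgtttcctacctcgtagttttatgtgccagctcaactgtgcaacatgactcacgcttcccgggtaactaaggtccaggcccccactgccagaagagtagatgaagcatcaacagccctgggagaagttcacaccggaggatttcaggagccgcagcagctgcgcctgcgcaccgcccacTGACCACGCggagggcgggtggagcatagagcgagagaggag
Sod1 holds 1 match on the opposite strand, with its first base 56 bases before the RefSeq start, and Gstm5 holds 1 on its own strand, 42 bases before the RefSeq start. The deposited coordinates place the start of Sod1 at 90220742 and that of Gstm2 at 107986436, so these 2 windows run into the gene by those coordinates. The sequences of Gsto1, Gstm1 and Gstm2 hold no match in this window.

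Promoter sequences matched 36 of the 43 genes, and 8 of these (22.2%) held the motif in at least 1 window: Sod1, Gstm5, Gclm, Txnrd1, Prdx1, Mgst1, Nfe2l2 and G6pdx. The share was 14.4% among 6667 tested genes with a promoter and 11.5% among all 27025 genes with one. The 36 genes include the 5 that were not tested, so they are not the same kind of set as the 6667. The Prdx1 match, GCTGAGTCA, also holds the AP-1 motif TGACTCA on the opposite strand. Of the 8 genes with a match, 1 (Sod1) passed the test. Hmox1, Gclc, Gsr, Sod3, Prdx6, Gsta4 and Msra had no entry.

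The libraries were compared as deposited. Summed FPKM, over the rows that no library lacks, was 1631866 to 1725738 for WT libraries and 1251386 to 1519627 for FNcKO libraries. Crystallins took 23.9% ± 1.13 of it in WT, beside 32.5% ± 4.18 for FNcKO (SD, n = 3 each). Fragment numbers are not in the table. WT replicate 2 has no value for 5 of the genes (Gclc, Gsta4, Gpx1, G6pdx and Prdx4), which were fitted on the 5 other libraries. Fn1, the targeted gene, was at 0.135, 0.188 and 0.253 FPKM in WT and at 0.128, 0.0482 and 0.0942 FPKM in FNcKO, over the whole gene, which does not check the deleted part. Summed FPKM of 8 lens fiber markers was 142230 to 148700 in WT and 142340 to 150270 in FNcKO. Most of this sum was Crybb2 (means 96926 and 90095 FPKM) and Cryaa (39128 and 45100 FPKM). Cryaa was higher without overlap, as were Bfsp2, Mip and Gja3. Crybb2 was lower, its highest FNcKO value (94678 FPKM) just under its lowest WT value (94689 FPKM). The sum says little of the other markers. Of 9 fiber markers tested, 6 had log2 changes above 0 and 3 below, and none passed. The 7 lens epithelium markers summed to 1340 to 1394 FPKM in WT and 1427 to 1642 FPKM in FNcKO, without overlap. Igfbp7 (means 468 and 463 FPKM) and Cd24a (838 and 1008 FPKM) made up most of this sum. Cd24a was higher without overlap, and Igfbp7 overlapped. Of the 7 genes 4 had log2 changes above 0 and 3 below. Only Epha2 passed, as higher (5.74 ± 0.367 and 8.33 ± 0.502 FPKM, SD, n = 3 each, limma adjusted p = 0.0422). Marker sums for the ciliary body and iris (6 genes) were 27.985 to 38.4 FPKM in WT and 60.9 to 79.0 in FNcKO. In this list Optc (means 18.3 and 42.9 FPKM), Aqp1 (5.27 and 15.6) and Col9a1 (2.38 and 5.17) were higher without overlap. Of them Aqp1 passed (limma adjusted p = 0.0432). Aqp4 (3.95 and 3.31 FPKM) was lower without overlap, and Wfdc1 and Slc4a4 overlapped. The sums for photoreceptors (9 genes) were 25.9 to 74.5 and 38.7 to 39.5, and for pigment cells (8 genes) 11.6 to 19.0 and 6.67 to 8.46. Ttr (means 8.85 and 3.68 FPKM) was the largest part of the pigment cell sum. It was lower without overlap, as were Oca2 and Mlana. Only Ttr and Oca2 were tested, and neither passed (limma adjusted p = 0.0887 and 0.0798). Tyr, Tyrp1, Dct, Pmel and Rpe65 overlapped, with Tyr and Tyrp1 having higher means in FNcKO. The photoreceptor sum leaves out Gnat1, which lacks WT replicate 2 and was lower, at 18.9 and 22.2 FPKM in WT and 8.84, 9.64 and 9.77 FPKM in FNcKO (limma adjusted p = 0.0215). Of the 10 photoreceptor markers, 9 had log2 changes below 0. Red blood cell markers summed to at most 1.82 FPKM and macrophage and leukocyte markers to at most 4.23 FPKM in any library, with Slc4a1 at 0 throughout. The part that other cell types play in the values below was not tested. In bulk tissue, fewer cells of a type and less RNA per cell cannot be told apart.

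**Figure D1:**
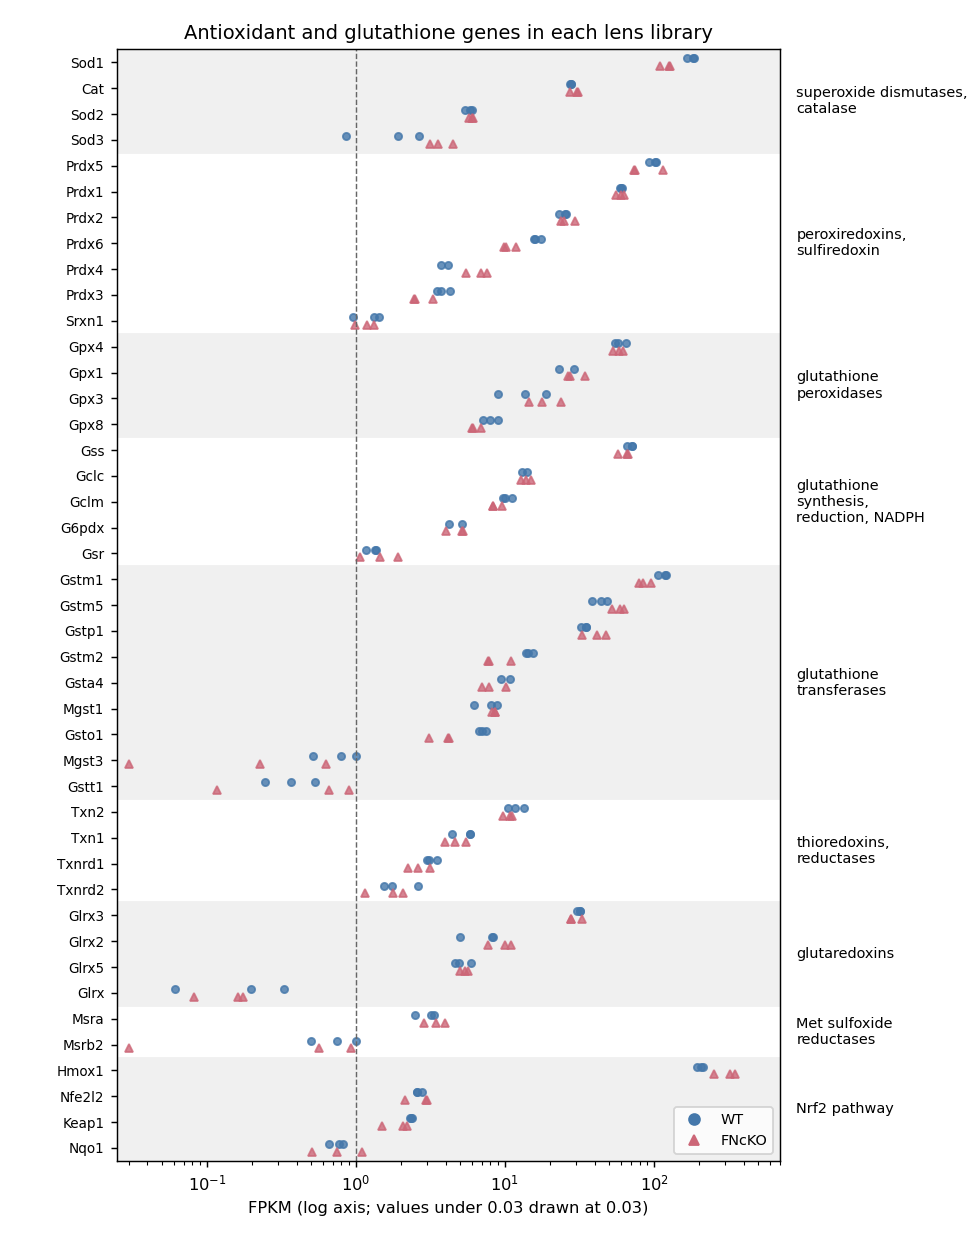
FPKM (log axis) of the 43 genes in each library, grouped by role; circles are WT libraries, triangles FNcKO libraries, and the dashed line marks 1 FPKM. Hmox1 and Sod1 are the most abundant. Sod1, Prdx6 and Gsto1 are among 9 tested genes with all FNcKO values below all WT values (23.7%, beside 16.3% of all genes tested).

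Among superoxide dismutases and catalase, 1 of 4 fell. Sod1 (chromosome 16, 90220742 to 90226324, GRCm38) stood at 166.7, 182.1 and 186.5 FPKM in WT libraries and at 126.2, 109.3 and 127.8 FPKM in FNcKO libraries, each in the order of replicates 1 to 3, as in all such triples here. Every FNcKO library lay below every WT library. The means were 178.4 ± 10.4 and 121.1 ± 10.2 FPKM (SD, n = 3 each), and the log2 change was -0.56 (SE 0.09). Leaving out any 1 library raised its adjusted p above 0.05 (limma adjusted p from 0.0747 to 0.168) and so did a replicate block (0.199). Cat, catalase, was nearly level, at 27.4 ± 0.267 FPKM in WT beside 29.5 ± 1.97 in FNcKO (SD, n = 3 each), and Sod2, the mitochondrial dismutase, stood at 5.73 ± 0.27 and 5.94 ± 0.207 FPKM (SD, n = 3 each). The ratio of Sod1 to Cat within a library, which a single scaling factor per library cannot alter, was 6.15 to 6.76 in WT and 3.56 to 4.64 in FNcKO. Sod3, the secreted dismutase of the extracellular matrix, went the other way, at 1.90, 0.858 and 2.65 FPKM in WT and 4.51, 3.16 and 3.58 FPKM in FNcKO. The groups did not overlap, yet the spread was wide and the gene did not pass (log2 change 0.81, SE 0.26, limma adjusted p = 0.197). The ciliary body and iris marker sum of the same libraries was 34.6, 27.985 and 38.4 FPKM in WT and 74.6, 60.9 and 79.0 FPKM in FNcKO, also without overlap and also lowest in WT replicate 2. Within FNcKO both were lowest in replicate 2, while Sod3 was highest in replicate 1 and the sum in replicate 3. A link between Sod3 and this sum was not tested.

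Peroxiredoxins reduce peroxides with a reactive cysteine, and 1 of the 7 genes of this group, which includes sulfiredoxin, fell. Prdx6 (chromosome 1, 161240112 to 161251210) stood at 15.6, 15.8 and 17.5 FPKM in WT and 11.9, 9.91 and 10.2 FPKM in FNcKO. No FNcKO value reached the WT range. The means were 16.3 ± 1.003 and 10.7 ± 1.07 FPKM (SD, n = 3 each), with a log2 change of -0.57 (SE 0.09). Prdx6 still passed without FNcKO replicate 1 (limma adjusted p = 0.0460) and missed without any other library (0.111 to 0.160) and with the replicate block (0.190). The cytosolic Prdx1 was at 59.9 ± 0.928 FPKM in WT beside 59.6 ± 3.73 in FNcKO (SD, n = 3 each), so the ratio of Prdx6 to Prdx1 went from 0.272 ± 0.0136 to 0.179 ± 0.0204 (SD, n = 3 each).

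The other peroxiredoxins did not move as 1 group. Prdx4, the peroxiredoxin of the endoplasmic reticulum, was at 4.18 and 3.70 FPKM in WT replicates 1 and 3 and at 5.50, 6.87 and 7.57 FPKM in FNcKO. All 3 FNcKO values were above both WT values, and the gene did not pass (log2 change 0.62, SE 0.14, limma adjusted p = 0.121, fitted without WT replicate 2). Prdx3, a mitochondrial peroxiredoxin, was at 4.31, 3.71 and 3.51 FPKM in WT and 2.50, 3.27 and 2.46 FPKM in FNcKO. These also did not overlap, in the opposite direction, and did not pass (log2 change -0.38, SE 0.11, limma adjusted p = 0.175). Prdx5, the most abundant of the family, was at 92.7, 103.8 and 101.5 FPKM in WT and 74.1, 115.0 and 73.2 FPKM in FNcKO. FNcKO replicate 2 was the highest of all libraries and the other FNcKO libraries the lowest, so the groups overlapped (limma adjusted p = 0.605). Prdx5 shares 19.1% of its exonic bases with Trmt112 on the opposite strand, and the use of strand in counting is not given in the sources used here. Prdx2 was at 24.8 ± 1.45 and 26.1 ± 3.04 FPKM and Srxn1, sulfiredoxin, which repairs overoxidized peroxiredoxins, at 1.24 ± 0.247 and 1.17 ± 0.166 FPKM (SD, n = 3 each).

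**Figure D2:**
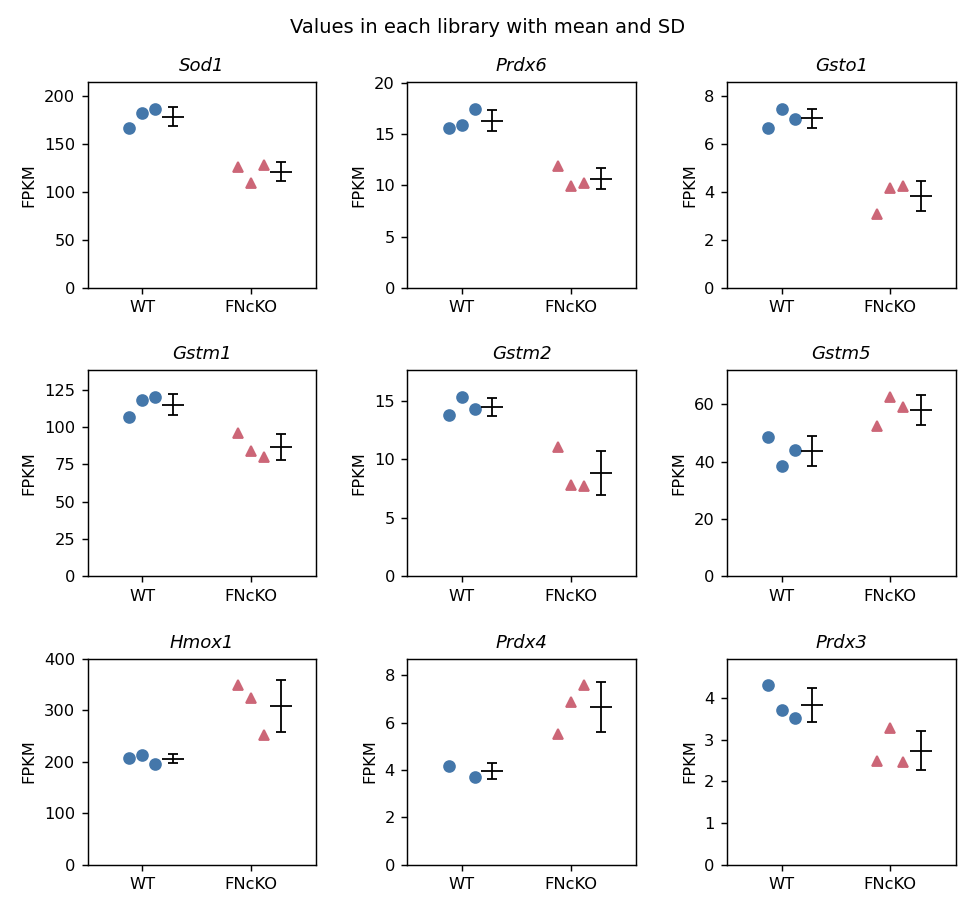
FPKM of 9 genes in each WT (circles) and FNcKO (triangles) library, with the mean and SD of each group in black; every axis starts at 0. The groups do not overlap in any of the 9, and Prdx4 has only 2 WT values.

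Glutathione transferases attach glutathione to reactive compounds, and 1 of the 7 tested genes fell. Gsto1 (chromosome 19, 47854973 to 47864790), whose product also reduces dehydroascorbate, stood at 6.68, 7.46 and 7.05 FPKM in WT and 3.09, 4.17 and 4.24 FPKM in FNcKO. The highest FNcKO value was well under the lowest WT value. The means were 7.06 ± 0.391 and 3.83 ± 0.643 FPKM (SD, n = 3 each), with a log2 change of -0.75 (SE 0.11), the largest fall of the set. Gsto1 shared no window of 50 bases with the annotated transcripts of another gene. It passed without FNcKO replicate 1 (limma adjusted p = 0.0478) and missed without any other library (0.0901 to 0.164) and with the replicate block (0.125).

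The mu-class genes lie side by side on chromosome 3 and differed in direction. Gstm1, the most abundant transferase, was at 106.8, 118.4 and 120.1 FPKM in WT and 96.1, 84.3 and 79.7 FPKM in FNcKO (log2 change -0.41, SE 0.09, limma adjusted p = 0.106). Gstm2 was at 13.8, 15.3 and 14.3 FPKM in WT and 11.0, 7.83 and 7.70 FPKM in FNcKO (log2 change -0.67, SE 0.14, limma adjusted p = 0.0808). For both genes all FNcKO libraries were below all WT libraries, and FNcKO replicate 1 was the nearest to WT. Gstm2 passed without that library (limma adjusted p = 0.0239).

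Gstm5 was at 48.7, 38.3 and 43.9 FPKM in WT and 52.4, 62.5 and 58.9 FPKM in FNcKO, each FNcKO value above each WT value (log2 change 0.40, SE 0.11, limma adjusted p = 0.156). None of the 3 genes passed with all libraries. The ratio of Gstm5 to Gstm1 within a library was 0.324 to 0.455 in WT and 0.545 to 0.742 in FNcKO, and that of Gstm5 to Gstm2 was 2.50 to 3.51 and 4.74 to 7.98. Of the 4 further mu-class genes between or beside them, Gstm7, Gstm6, Gstm3 and Gstm4 had log2 changes of -0.31, -0.28, -0.29 and -0.03, and none passed. Gstm1 shared 18.9% and Gstm2 5.7% of their 50-base windows with transcripts of other genes, and Gstm5 shares 13.9% of its exonic bases with an antisense transcript, so how fragments were divided among these genes is uncertain.

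Of the other transferases, Gsta4, which acts on the lipid peroxidation product 4-hydroxynonenal, was at 9.45 and 10.9 FPKM in WT replicates 1 and 3 and at 7.86, 6.97 and 10.2 FPKM in FNcKO, with overlap. Gstp1 was at 34.1 ± 1.25 and 40.6 ± 7.15 FPKM and shares 33.7% of its windows with Gstp2 and related sequences, and Mgst1, a membrane-bound transferase, was at 7.70 ± 1.32 and 8.46 ± 0.272 FPKM (SD, n = 3 each). Below 1 FPKM, Mgst3 was at 0.996, 0.795 and 0.513 FPKM in WT and 0.634, 0 and 0.228 FPKM in FNcKO. Gstt1 was at 0.369, 0.247 and 0.532 FPKM in WT and 0.893, 0.664 and 0.118 FPKM in FNcKO. Both overlapped between the groups.

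Glutathione synthesis and reduction showed no call among 5 genes, with 1 at an unadjusted p under 0.05. Gss was at 65.5, 70.8 and 70.8 FPKM in WT and 65.4, 67.1 and 57.7 FPKM in FNcKO, with overlap (limma adjusted p = 0.492). Gclc, the catalytic subunit of glutamate-cysteine ligase, was at 12.97 and 14.01 FPKM in WT replicates 1 and 3 and at 15.04, 13.9 and 12.8 FPKM in FNcKO. Its partner Gclm was at 10.2 ± 0.731 and 8.71 ± 0.724 FPKM (SD, n = 3 each), without overlap and without passing (limma adjusted p = 0.263). Gsr, the reductase, was near the lower limit of the test, at 1.297 ± 0.111 and 1.48 ± 0.421 FPKM (SD, n = 3 each). G6pdx was at 4.22 and 5.18 FPKM in WT replicates 1 and 3 and at 5.26, 5.15 and 3.999 FPKM in FNcKO, again with overlap.

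None of the 4 glutathione peroxidases passed, with 1 at an unadjusted p under 0.05. Gpx4, which protects membranes from lipid peroxides, was at 54.3, 57.1 and 65.1 FPKM in WT and 53.0, 61.5 and 57.8 FPKM in FNcKO, overlapping throughout (limma adjusted p = 0.896). Gpx1, the cytosolic enzyme, was at 22.9 and 29.1 FPKM in WT replicates 1 and 3 and at 27.4, 34.6 and 26.4 FPKM in FNcKO. Gpx8, an enzyme of the endoplasmic reticulum, was at 8.02 ± 0.901 and 6.35 ± 0.484 FPKM (SD, n = 3 each) without overlap (limma adjusted p = 0.198). It lies in the same compartment as Prdx4, whose levels differed in the other direction. Gpx3, the secreted peroxidase, varied widely within WT, at 13.7, 9.05 and 18.7 FPKM, beside 23.8, 17.8 and 14.5 FPKM in FNcKO (limma adjusted p = 0.492). Like Sod3, it was lowest in WT replicate 2, the library with the lowest photoreceptor and ciliary marker sums in WT. Within FNcKO it was lowest in replicate 3, where the ciliary sum was highest. A link between Gpx3 and these sums was not tested.

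The thioredoxin system passes electrons from NADPH to peroxiredoxins and other proteins, and 0 of its 4 genes passed limma's test, with 0 at an unadjusted p under 0.05. All 4 had log2 changes below 0, between -0.20 and -0.15, where 60.3% of all genes tested were below 0. Txn2, the mitochondrial thioredoxin, was at 10.5, 11.7 and 13.4 FPKM in WT and 9.65, 11.2 and 10.8 FPKM in FNcKO. Txn1 was at 5.37 ± 0.816 and 4.67 ± 0.752 FPKM, and the reductases Txnrd1 and Txnrd2 at 3.20 ± 0.27 and 2.67 ± 0.438 FPKM and at 1.96 ± 0.571 and 1.66 ± 0.463 FPKM (SD, n = 3 each). In all 4 genes the groups overlapped, and after scaling to equal FPKM totals, which moves the median of all genes to 0.15, Txn1, Txn2 and Txnrd2 were above 0. Relative to that median they stood at -0.11, -0.07 and -0.14.

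Glutaredoxins use glutathione to reduce proteins, and some carry iron-sulfur clusters; 0 of 3 passed limma's test and 0 had an unadjusted p under 0.05. Glrx3 was at 31.9, 30.5 and 32.0 FPKM in WT and 27.7, 33.0 and 27.5 FPKM in FNcKO, with overlap. Glrx2 was at 7.18 ± 1.88 and 9.54 ± 1.68 FPKM and Glrx5 at 5.15 ± 0.686 and 5.34 ± 0.348 FPKM (SD, n = 3 each). Glrx, the cytosolic glutaredoxin, was at most 0.328 FPKM in any library. Methionine sulfoxide reductases repair oxidized methionine. Msra was at 3.18, 2.50 and 3.34 FPKM in WT and 2.86, 3.43 and 3.97 FPKM in FNcKO (limma adjusted p = 0.62), and Msrb2 at 0.75 ± 0.253 and 0.497 ± 0.467 FPKM (SD, n = 3 each).

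In the Nrf2 group, Hmox1 (chromosome 8, 75093618 to 75100593), which breaks haem down to iron, carbon monoxide and biliverdin, was the most abundant of the 43 genes. Its mean over all libraries, 256.3 FPKM, was above that of 97.6% of the genes tested. It stood at 206.8, 213.4 and 195.7 FPKM in WT and 347.8, 323.0 and 251.2 FPKM in FNcKO. All FNcKO libraries were above all WT libraries, and FNcKO replicate 3 was the nearest to them. The log2 change was 0.57 (SE 0.13, limma adjusted p = 0.109), and without FNcKO replicate 3 it was 0.71 and passed (limma adjusted p = 0.0478). Hmox2, the constitutive haem oxygenase, was at 16.8 ± 2.39 and 15.9 ± 0.289 FPKM (SD, n = 3 each), and the ratio of Hmox1 to Hmox2 was 10.006 to 14.1 in WT and 16.1 to 21.5 in FNcKO. No macrophage or leukocyte marker reached a mean of 1 FPKM over the 6 libraries, though Lyz2 had means of 1.33 FPKM in WT and 0.525 FPKM in FNcKO. The ciliary body and iris marker sum was higher in FNcKO without overlap, as Hmox1 was. A link between Hmox1 and other cell types was not tested. Hmox1 shared no exonic base with another annotated gene. Nqo1, a quinone reductase and a common readout of Nrf2, stayed low at 0.753 ± 0.0824 and 0.784 ± 0.295 FPKM (SD, n = 3 each). Nfe2l2 was at 2.65 ± 0.115 and 2.70 ± 0.49 FPKM, with overlap, and Keap1 at 2.35 ± 0.0343 and 1.93 ± 0.378 FPKM (SD, n = 3 each), without overlap and without passing (limma adjusted p = 0.403).

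**Figure D3:**
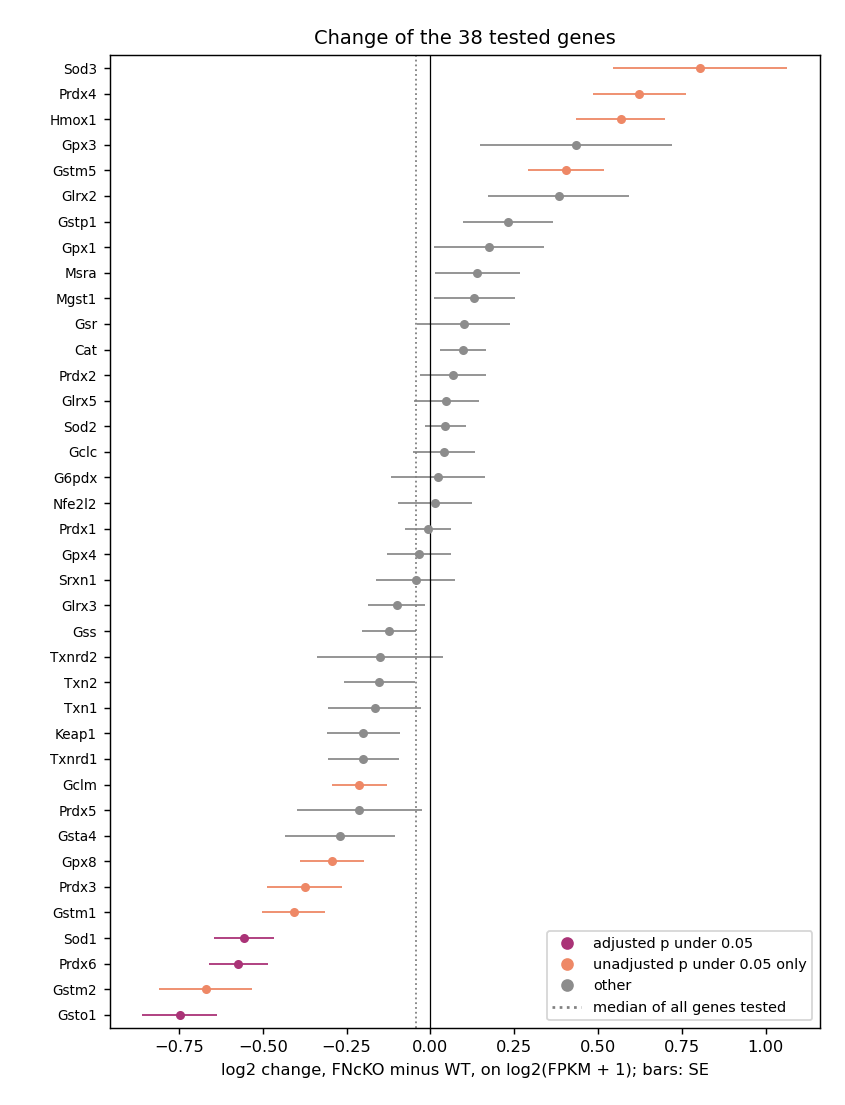
Log2 change (FNcKO minus WT, on log2(FPKM + 1)) of the 38 tested genes with its SE, ordered by size; colours show which pass adjusted or only unadjusted p under 0.05, and the dotted line is the median of all genes tested. Gsto1, Prdx6 and Sod1 pass as lower, and the 38 genes spread on both sides of 0.

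Over the 38 tested genes, the groups did not overlap in 4 that were higher in FNcKO (Sod3, Prdx4, Gstm5 and Hmox1) and in 9 that were lower. These are 10.5% and 23.7% of the set, where 9.31% and 16.3% of all genes tested did not overlap in the same directions. An unadjusted p under 0.05 was reached by 4 higher and 8 lower genes, 10.5% and 21.1%, beside 6.74% and 11.4% of all genes tested. As the set was chosen with earlier results of these data known, none of these shares tests it. Summed over the 38 genes that no library lacks (not the same 38 as those tested), FPKM came to 1084 ± 35.0 for WT libraries, beside 1092 ± 77.3 for FNcKO libraries (SD, n = 3 each). Both totals are on the deposited scale, where every FNcKO library had a lower summed FPKM than every WT library. With the same FPKM total, which moves the median of all genes to 0.15, 28 of the 38 tested genes were above 0. On the deposited scale the Nrf2 group, which is almost all Hmox1, went from 211.1 ± 8.91 to 312.8 ± 51.2 FPKM (SD, n = 3 each). Superoxide dismutases with catalase, mostly Sod1, went from 213.4 ± 11.0 to 160.3 ± 9.71 FPKM (SD, n = 3 each). Of this group only Sod1 fell, and Sod2, Sod3 and Cat had log2 changes above 0.

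The calls depended on how libraries were scaled to each other. After scaling to equal FPKM totals, and to equal totals without crystallins, the median log2 change of all genes moved from -0.04 to 0.15 and 0.29, and 0 of the 38 genes passed limma's test. Subtracting the median of all genes largely cancels a single factor per library, so likeness across such scalings follows from the construction. Relative to that median, the log2 changes under the 5 scalings lay between -0.51 and -0.43 for Sod1, between -0.53 and -0.47 for Prdx6 and between -0.71 and -0.68 for Gsto1. For Hmox1 they lay between 0.61 and 0.71, and for Gstm5 between 0.45 and 0.54. Gsto1 alone passed with median-ratio scaling (adjusted p = 0.0384), and Gsto1 and Sod1 after quantile normalization (0.0416 and 0.0448, beside 0.0593 for Prdx6).

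**Figure D4:**
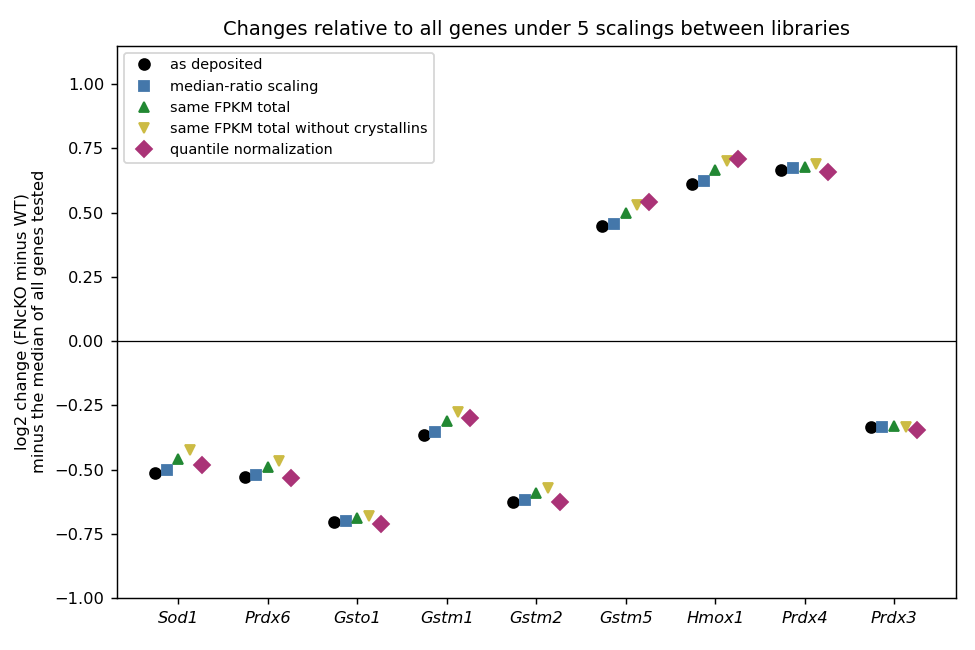
Log2 change of 9 genes minus the median log2 change of all genes tested, under 5 scalings between libraries (symbols). Gsto1 lies between -0.71 and -0.68 and Hmox1 between 0.61 and 0.71; subtracting the median largely cancels a single factor per library, so the closeness of the symbols is no sign of stability.

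A list of 99 related genes was read out of the same fit, of which 97 were in the table (4 under an older symbol) and 65 were tested. It covers cystine and glutathione transport, NADPH supply, other transferases, other thioredoxin-like proteins and selenoproteins, and other Nrf2, iron and quinone genes. Of the 65, 1 fell and 0 rose by limma's test, with 7 lower and 7 higher at an unadjusted p under 0.05. The lower call is 1.54% of the list, beside 1.03% of all genes tested, and the unadjusted counts are 10.8% each, beside 11.4% lower and 6.74% higher. The median log2 change was -0.07. The gene that fell was Slc7a11, the cystine transporter that supplies cysteine for glutathione, at 4.35, 4.14 and 4.86 FPKM in WT and 2.45, 2.77 and 2.73 FPKM in FNcKO (log2 change -0.58, SE 0.08, adjusted p = 0.032). Its values did not overlap between the groups. Leaving out any 1 library raised it above 0.05 (0.0786 to 0.139). Among 11 genes of NADPH supply, among 8 other transferases, among 18 thioredoxin-like and selenoprotein genes, and among 15 Nrf2, iron and quinone genes, 0 passed, with 2, 0, 4 and 3 at an unadjusted p under 0.05.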

How the data were processed

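The authors deposited 1 table of FPKM values with a column for each of 6 libraries. The builds mm10 and GRCm38.p5 and the tools Cuffdiff 2.2.1, TopHat2 2.1.0, cutadapt 1.12 and FastQC are named, per the submitters' processing notes. How strand was used is not given in the sources used here, nor is the annotation or a scaling of libraries. WT replicate 2 has no value in 3578 rows (8.63%) at the end of the table. Start positions were raised by 1, after which 33 of the 43 genes start where RefSeq (GRCm38.p6) has them, and 0 before.

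The deposited FPKM values were filtered at a mean of 1 FPKM, which left 10149 genes, 742 of them lacking WT replicate 2. On log2(FPKM + 1), limma 3.58.1 (R 4.3.3) was run with a trended empirical Bayes prior, and two-sided p-values were adjusted by Benjamini-Hochberg over all genes tested (threshold 0.05). Log2 changes understate those of low genes, and folds are ratios of mean FPKM. The fit was tested on simulated data. Per the labels, the libraries of a genotype are biological replicates. Members, lists and ratios were chosen with earlier results of these data known. Values in every library are given for genes past the test, the 6 next smallest p, the most abundant gene of each group and those lacking a library, and for other genes chosen after their values were seen. Depth could not be settled: the best whole-number match among 33 to 60 low values a library ran from 9600000 to 55400000 fragments, with 55.9% to 69.7% of values within 0.15 of a whole number. Overlaps and 50-base windows come from GENCODE M21 (GRCm38). Alternatives covered the pseudocount, the filter, the scaling, the variance prior, the replicate block and each library left out.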

Additional observations from a re-analysis of the deposited data

How the results depend on the processing

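The count of genes past the test was small and moved with most settings. Of the 38 genes, 3 were lower with all libraries as deposited, beside 1 with median-ratio scaling and 0 without a filter, with the same FPKM total, with that total without crystallins, and with the replicate block. With 1 library left out, 0 to 3 were lower and 0 to 1 higher. Related genes lower numbered 1, beside 0 without a filter, with both same-total scalings, with the replicate block and with any library left out. Related genes higher numbered 0, beside 1 at a pseudocount of 0.1 (Cbr1), 2 with median-ratio scaling and 2 after quantile normalization (Cbr1 and Ggct), and 0 to 1 with a library left out. Sod1 also missed with a variance prior without a trend (adjusted p = 0.0512), and Prdx6 with median-ratio scaling (0.0544). Over all genes, calls went from 192 to 101 without a filter, 89 and 86 with the same-total scalings, 37 to 117 with a library left out and 14 with the replicate block, and the share of higher calls from 45.3% to 57.9%, 60.4%, 70.8% and 76.7% with median-ratio, quantile, same-total and same-total scaling without crystallins.

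The replicate numbers did not pair the libraries: same-numbered libraries had correlations of -0.027, -0.055 and -0.046 between their deviations from the group means, and no library correlated best with its own number. With the replicate block 0 of the 38 genes passed, and G6pdx changed sign, to -0.022.

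The median log2 change of the 38 genes went from -0.02 to 0.21 with the same FPKM total and 0.34 without crystallins in it. Over 14 alternatives 17 of the 38 genes kept their direction, among them Sod1, Prdx6, Gsto1, Gstm2, Gstm5, Hmox1, Prdx3, Prdx4 and Sod3. In these named genes the groups did not overlap. Leaving out a library, another pseudocount or the replicate block therefore could not turn their direction. The filter and the variance prior do not alter a log2 change, so for these genes only the scalings could have turned it. With the same FPKM total, the log2 change turned above 0 for Gclm (0.018), Gss (0.13), Txnrd2 (0.014), Txn1 (0.046), Txn2 (0.080), Srxn1 (0.093), Prdx1 (0.24), Prdx5 (0.037), Gpx4 (0.21) and Glrx3 (0.14). Without crystallins in the total it did so for Gclm (0.18), Gss (0.30), Txnrd1 (0.12), Txnrd2 (0.13), Txn1 (0.19), Txn2 (0.24), Srxn1 (0.19), Prdx1 (0.41), Prdx5 (0.21), Gpx4 (0.39), Gpx8 (0.082), Gsta4 (0.11), Gstm1 (0.017), Glrx3 (0.31) and Keap1 (0.097). After quantile normalization it did so for Gss (0.021), Prdx1 (0.15), Gpx4 (0.13) and Glrx3 (0.0064), and with median-ratio scaling for Prdx1 (0.041) and Gpx4 (0.015). With 1 library left out, values ran on both sides of 0 for Gclc (-0.014 to 0.093), Gsr (-0.023 to 0.22), Txnrd2 (-0.26 to 0.0014), Srxn1 (-0.14 to 0.020), Prdx1 (-0.048 to 0.040), Prdx2 (-0.023 to 0.13), Gpx4 (-0.088 to 0.040), Glrx5 (-0.014 to 0.14), Nfe2l2 (-0.050 to 0.13) and G6pdx (-0.098 to 0.15). Both same-total scalings shift all genes (median log2 change 0.15 and 0.29). Relative to that median, the genes listed for them kept their side, except Gss (0.0053) and Glrx3 (0.021) without crystallins. For the other settings the cause was not tested.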

Other observations

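Mt1, metallothionein 1, a small metal-binding protein that also takes up oxidants, was in the related list and was chosen here after its values were seen. It stood at 2.36, 4.05 and 3.92 FPKM in WT and at 4.30, 132.5 and 83.6 FPKM in FNcKO. FNcKO replicate 1 lay just above the WT range while the other FNcKO libraries were far above it, so the difference did not pass (log2 change 3.16, SE 1.20, limma adjusted p = 0.251), and Mt1 passed without FNcKO replicate 1. Mt2, its neighbour in the family, was at most 1.05 FPKM in any library.

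Cbr1, a carbonyl reductase, was at 9.501 ± 1.04 FPKM in WT beside 14.2 ± 0.699 in FNcKO (SD, n = 3 each; limma adjusted p = 0.0501), and Ggct, which breaks down gamma-glutamyl peptides, at 11.2 ± 1.14 and 15.9 ± 1.07 FPKM (SD, n = 3 each; limma adjusted p = 0.0751). Fth1, the ferritin heavy chain that stores iron, was at 318.2 ± 19.1 and 246.6 ± 7.72 FPKM (SD, n = 3 each; limma adjusted p = 0.0795). These genes were also chosen after their values were seen, and in each the groups did not overlap.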
